A study of Mus musculus with 6 samples.

Results

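The heat shock proteins and DnaJ chaperones described here were the 73 genes, of 55573 in the count table, whose symbols carry the family names of the HSP90, HSP70, HSP110, HSP60, HSP10, small HSP and DnaJ chaperones. A further 14 rows for pseudogenes, whose symbols end in -ps with or without digits, were left out. By the compartment in which the proteins are known to work, 36 members were grouped as cytosolic, 14 as endoplasmic reticulum (ER), 9 as mitochondrial and 13 as elsewhere, and 1 was not placed. The group elsewhere includes DnaJ proteins of vesicles, such as Dnajc5 and Dnajc6, whose partner Hspa8 was grouped as cytosolic. The cytosolic values below therefore leave Dnajc5 and Dnajc6 out. RNA was measured in cells labelled retinal ganglion cells (RGCs), the cell type that sends its axons through the optic nerve to the brain, although RGC markers were scarce in these libraries (below). The cells were sorted by flow cytometry from retinas of C57BL/6 mice with floxed alleles of both Myh9 and Myh10, which encode non-muscle myosin II heavy chains. All mice carried the floxed alleles. The group labelled WT (n = 3 libraries) received the viral vector AAV2-GFP in the vitreous, and the group labelled dKO (n = 3 libraries) received AAV2-Cre, whose recombinase cuts the floxed alleles. Retinas were taken 2 weeks later, and each library pooled 3 retinas from different mice. The sources used here do not give the promoter driving Cre or the age of the mice.

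Chaperones bind unfolded proteins and help them reach or keep their shape. HSP70 proteins hold short exposed stretches of a client, DnaJ proteins bring the client and trigger ATP hydrolysis, HSP110 proteins exchange the nucleotide, and HSP90 proteins act late on kinases, receptors and other clients. The ER and the mitochondrial matrix hold their own HSP70 and HSP90 proteins. Misfolding in the cytosol activates heat shock factor 1 (HSF1), which induces one group of these genes, and misfolding in the ER activates the unfolded protein response (UPR), which induces another. In neurons such as RGCs, HSP70 and its DnaJ partner Dnajc5 also serve the synaptic vesicle cycle.

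The libraries held 4569880 to 6146226 counts, but 1 ribosomal RNA row took 89.8% to 92.8% of them in 5 libraries and 64.2% in dKO replicate 3. Outside this row, 346037 to 576060 counts were left in those 5 libraries and 1636581 in dKO replicate 3, which thus stands apart in depth; shares below are of these remaining counts. Myh9 lay at 63.6, 68.4 and 60.7 CPM in WT and at 63.7, 66.3 and 58.2 in dKO, where CPM are counts scaled by TMM to a common library size. Myh10 lay at 19.9, 19.96 and 16.3 CPM in WT and at 19.2, 20.6 and 14.2 in dKO. Neither targeted gene was called (log2 fold change -0.04 ± 0.098 SE and -0.15 ± 0.14, edgeR adjusted p = 0.908 and 0.735), and counts over whole genes do not show whether the floxed part was removed. RGC markers were scarce in the libraries labelled RGCs: Pou4f2 had 0 counts in every WT library and 0, 2 and 5 in dKO, and 4 of 11 markers had enough counts to test. Summed RGC markers took 0.0176% to 0.0231% of the remaining counts in WT and 0.0306% to 0.0321% in dKO, and Nefl, the neurofilament light chain, rose. Of the rod photoreceptor markers 7 of 10 rose (summed level 0.166% to 0.187% in WT, 0.316% to 0.393% in dKO), and of the bipolar cell markers 4 of 8 fell (0.174% to 0.182% and 0.125% to 0.130%). Müller glia and astrocyte markers took 3.00% to 3.10% in WT and 3.12% to 3.38% in dKO (1 of 10 called), and microglia and macrophage markers 0.701% to 0.765% and 0.755% to 0.807% (1 of 10 called). B and plasma cell markers took 0.313% to 0.393% and 0.269% to 0.296% (1 of 4 tested fell), T and NK cell markers 0.0329% to 0.0428% and 0.0392% to 0.0417% (1 of 6 fell), and endothelial and mural markers 0.320% to 0.378% and 0.341% to 0.352% (0 of 8 called). No marker of any of these lists was at 0 in all libraries. Their part in the chaperone values below was not tested.

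No member was called between dKO and WT. Of the 73 members, 45 had enough counts to test (18 cytosolic, 13 ER, 7 mitochondrial and 7 elsewhere), and none passed an edgeR quasi-likelihood adjusted p of 0.05, against 1.92% of the 8444 genes tested (0.734% called higher and 1.18% lower in dKO). Unadjusted p values lay under 0.05 for 3 of the 45 members by edgeR, against 12.5% of all genes. By DESeq2 they did for 1 member, against 440 of the 8444 genes, and by limma-voom for 3 members, against 1083. Those tools also called 0 members, against 52 genes by DESeq2 and 164 by limma-voom. The CPM of the groups did not overlap for 3 members, Dnaja2, Dnajc19 and Hspa14, against 17.0% of all genes. The 95% interval of the fold change lay within 1.5-fold in either direction for 24 of the 45 members and within 2-fold for 38. Over all 8444 genes tested it did so for 3408 and 7232. In bulk samples, fewer cells of a type and less RNA per cell cannot be told apart.

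**Figure D1:**
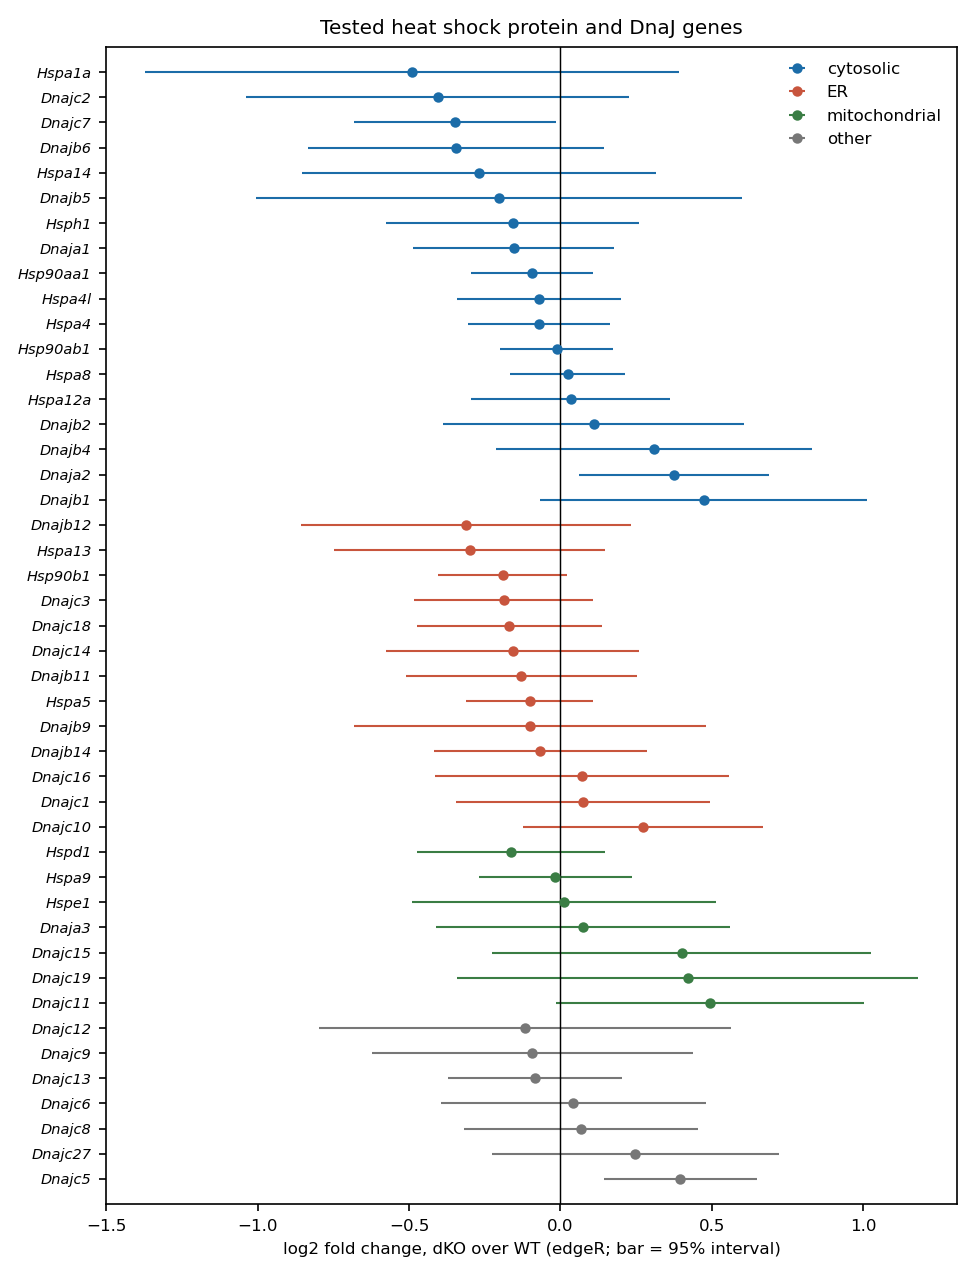
Log2 fold change, dKO over WT, of the 45 tested heat shock protein and DnaJ members, grouped by compartment; points are edgeR estimates and bars their 95% intervals. The estimates lie between -0.49 (Hspa1a) and 0.49 (Dnajc11), and no member passes the adjusted threshold.

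Levels per length of exon spanned a wide range, and the first 5 members came in the same order in both groups. The 5 most abundant members gave 50.4% of all member counts, and Hspa8 alone gave 19.3%. In WT, Hspa8 stood at 30.8 ± 1.64 CPM per kb (SD, n = 3) and Hsp90ab1 at 28.4 ± 0.332. The gap between them was larger than their SDs in both groups. Next came Hsp90aa1 at 12.8 ± 0.452, Hspa5 at 10.8 ± 1.18 and Hsp90b1 at 9.95 ± 1.03 CPM per kb. Hspa5 and Hsp90b1 lay within their SDs of each other. The highest mitochondrial members were Hspd1 at 4.93 ± 0.626, Hspa9 at 4.57 ± 0.457 and Hspe1 at 3.17 ± 0.990 CPM per kb, and the first pair lay within its SDs. Hspa8 lay at the 99.3 percentile of the tested coding genes per length, while Hspa1a, its stress-inducible relative, lay at the 23.6 percentile.

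**Figure D2:**
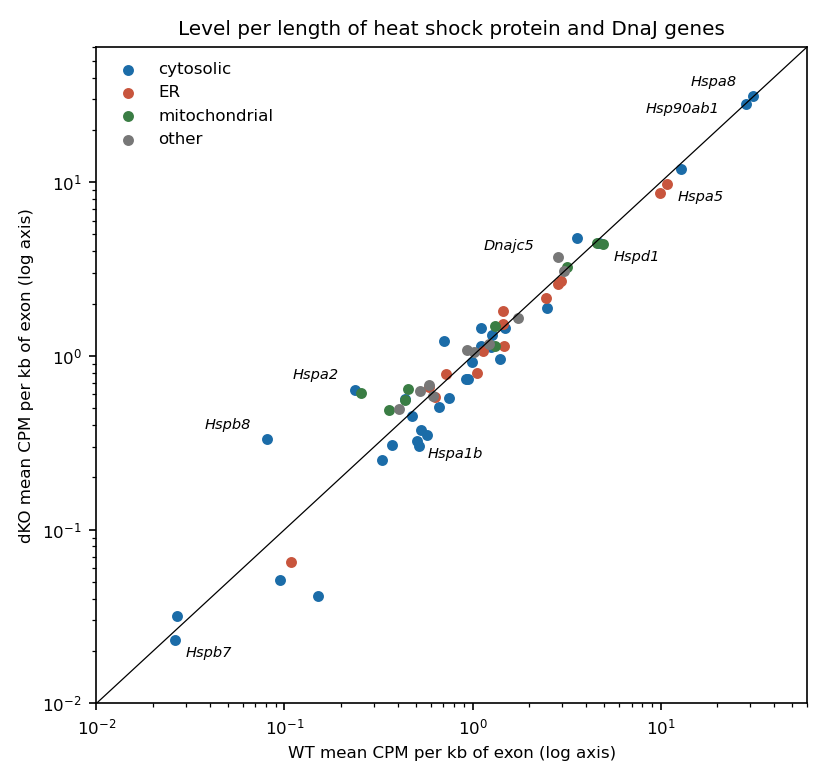
Mean level per kb of exon in WT (x axis) and dKO (y axis), both in CPM per kb on log axes, with 1 point for each member with counts in both groups, coloured by compartment; the line marks equal levels. Hspa8 and Hsp90ab1 are at the top right near 30.8 and 28.4 CPM per kb in WT, and Hspa2 and Hspb8, above the line, had few counts.

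The cytosolic HSP70 genes were carried by one constitutive member. Hspa8 (ENSMUSG00000015656, chromosome 9, 40800984 to 40810087 on GRCm38), the constitutive HSP70 that also strips clathrin from vesicles, lay at 127, 130.5 and 140.5 CPM in WT and at 130.1, 140.5 and 134.1 in dKO. The groups overlapped almost wholly, and the log2 fold change was 0.02 ± 0.095 (95% interval -0.17 to 0.21, adjusted p = 0.954). Per kb of exon, Hspa8 made up 89.0 ± 1.89% of cytosolic HSP70 counts in WT and 89.5 ± 0.835% in dKO (SD, n = 3). Hspa1a (chromosome 17, 34969190 to 34972156), which HSF1 strongly induces, lay at 2.40, 3.49 and 0.765 CPM in WT and at 1.34, 2.43 and 1.31 in dKO. WT replicate 3 was the lowest of all 6 libraries, and the log2 fold change of -0.49 ± 0.44 had a wide interval of -1.37 to 0.39 (adjusted p = 0.729). Its near-identical copy Hspa1b (chromosome 17, 34956436 to 34959238) had 9, 4 and 4 counts in WT and 6, 3 and 13 in dKO and was not tested. The sources used here do not say how reads that match both copies were counted, so their split is uncertain. Both together gave 4.13 ± 1.93 counts for every 100 of Hspa8 per kb in WT and 2.85 ± 0.458 in dKO. Hspa14, an HSP70 that works at the ribosome, was the tested cytosolic member with each dKO library (2.30, 3.16 and 3.46 CPM) below each WT library (3.50, 4.12 and 3.83). Its log2 fold change of -0.27 ± 0.29 lay within its error (adjusted p = 0.776).

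The cytosolic HSP90 pair was as even. Hsp90ab1 (chromosome 17, 45567775 to 45573271), the constitutive form, lay at 86.1, 85.5 and 84.2 CPM in WT and at 81.8, 83.2 and 87.7 in dKO. The groups overlapped, with a log2 fold change of -0.01 ± 0.094 (adjusted p = 0.974). Hsp90aa1 (chromosome 12, 110690605 to 110702728), the stress-inducible form, lay at 49.2, 52.3 and 49.2 CPM in WT and at 40.3, 49.0 and 50.3 in dKO. Replicate 1 of dKO was the low library, and the log2 fold change was -0.09 ± 0.10 (adjusted p = 0.776). Hsp90aa1 made up 31.0 ± 0.737% of the pair's counts per kb in WT and 29.6 ± 1.98% in dKO.

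All 3 HSP110 genes, whose proteins are the nucleotide exchange factors of HSP70, had estimates slightly below 0. Hsph1, which HSF1 induces, lay at 8.74, 7.92 and 5.10 CPM in WT and at 6.14, 7.77 and 6.27 in dKO, and its log2 fold change was -0.16 ± 0.21 (adjusted p = 0.822). Hspa4 and Hspa4l had -0.07 each. The 8 small HSP genes that the symbol rule takes in, Hspb11 of the cilium included, were too scarce to test, with 162 counts in all 6 libraries; small HSPs hold unfolded proteins without ATP. Cryab, a small HSP outside the symbol rule, was tested among the co-chaperones and had 10.2 ± 2.22 CPM in WT and 10.2 ± 2.23 in dKO (log2 fold change 0.11 ± 0.18, adjusted p = 0.868). Hspb1, which HSF1 induces, had 6, 3 and 8 counts in WT and 7, 3 and 14 in dKO. The last of these is the deepest library. The 8 genes summed took 0.00455 ± 0.00173% of the remaining counts in WT and 0.00409 ± 0.000578% in dKO.

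Cytosolic DnaJ genes had the widest spread of estimates. Dnaja2 (chromosome 8, 85537633 to 85555344), a general co-chaperone of HSP70, lay at 10.5, 9.51 and 11.99 CPM in WT and at 13.1, 16.3 and 13.4 in dKO. Every dKO library was above every WT library, by 0.37 ± 0.16 on the log2 scale (interval 0.06 to 0.69), with an adjusted p of 0.273. Dnajc7 (chromosome 11, 100582818 to 100620168), which binds both HSP70 and HSP90, lay at 13.1, 13.6 and 9.69 CPM in WT and at 9.41, 8.25 and 9.99 in dKO. WT replicate 3 fell among the dKO libraries, and the log2 fold change was -0.35 ± 0.17 (adjusted p = 0.364). Exons of Dnajc7 share 154 bases with Cnp and 287 with Nkiras2 on the other strand. In all, 12 tested members share exon bases with a coding gene. Among them, Dnaja1 shares 608 with Smu1 and Dnajc19 shares 178 with Fxr1 on the other strand. Hspa14 shares 321 with Gm45902 on the same strand. Dnajb1, the HSF1-inducible partner of HSP70, lay at 3.93, 4.44 and 2.30 CPM in WT and at 4.22, 4.37 and 5.35 in dKO. The groups overlapped, and the log2 fold change was 0.47 ± 0.27 (interval -0.07 to 1.01, adjusted p = 0.487). Dnaja1, also induced by HSF1, had -0.15 ± 0.17 (adjusted p = 0.776). Dnajc2, a ribosome-bound co-chaperone, had -0.41 ± 0.32 (adjusted p = 0.667). Dnajb6, which keeps aggregation-prone proteins soluble, had -0.35 ± 0.25 (adjusted p = 0.619). Over all 18 tested cytosolic members the median log2 fold change was -0.08, with 12 below 0, against a median of -0.0007 and 50.2% below 0 over all genes.

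The ER members had estimates of small size, 10 of 13 below 0. Those of the 5 UPR-inducible ones were below 0 in the fit as designed, but Dnajb9 changed sign under 4 of 16 alternatives and Dnajb11 under 2, and the summed UPR-inducible shares overlapped (0.0995% to 0.105% in WT, 0.0889% to 0.101% in dKO). Because the UPR is known to act on some of these promoters, RefSeq promoters (GRCm38.p6, 250 bases before to 50 after the start) were searched on both strands for the ER stress element (CCAAT, 9 bases of any kind, then CCACG), the site bound by the UPR factor Atf6 with NF-Y. It occurred in 39 of 32851 promoter windows (0.119%) and in 3 of the 58 members with a window, Hspa5, Hsp90b1 and Dnajc3. Members were counted as genes, and these 58 had 75 windows, so the counts differ in unit. These are printed from 5′ to 3′ on the strand of the gene, with the element, or its complement, in capitals.

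Hspa5: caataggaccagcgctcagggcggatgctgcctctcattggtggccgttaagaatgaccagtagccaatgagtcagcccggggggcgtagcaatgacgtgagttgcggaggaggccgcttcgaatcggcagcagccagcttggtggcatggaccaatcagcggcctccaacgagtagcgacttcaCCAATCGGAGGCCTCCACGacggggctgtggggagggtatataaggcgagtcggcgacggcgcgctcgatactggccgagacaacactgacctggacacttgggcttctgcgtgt

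Hsp90b1: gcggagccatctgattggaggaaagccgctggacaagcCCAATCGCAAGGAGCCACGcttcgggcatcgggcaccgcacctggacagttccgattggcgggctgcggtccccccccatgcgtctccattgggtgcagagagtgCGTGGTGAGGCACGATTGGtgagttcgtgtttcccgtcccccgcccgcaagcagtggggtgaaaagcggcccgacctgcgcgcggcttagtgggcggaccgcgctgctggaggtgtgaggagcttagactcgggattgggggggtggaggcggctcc

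Dnajc3: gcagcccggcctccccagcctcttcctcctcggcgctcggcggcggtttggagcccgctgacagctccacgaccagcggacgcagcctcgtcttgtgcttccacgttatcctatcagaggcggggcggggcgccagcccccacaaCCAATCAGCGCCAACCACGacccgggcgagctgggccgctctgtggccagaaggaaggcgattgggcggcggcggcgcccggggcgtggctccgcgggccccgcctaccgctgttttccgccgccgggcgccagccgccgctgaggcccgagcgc

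The Hspa5 window is chr2:34771840-34772139 on the + strand, and the element lies at -65 to -47 from the start. The Hsp90b1 window is chr10:86705395-86705694 on the - strand and holds 2 elements, at -212 to -194 and, on the other strand, at -107 to -89. The Dnajc3 window is chr14:118937682-118937981 on the + strand, with the element at -105 to -87. A match is a description of these letters and does not show that a factor binds there.

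Hspa5 (BiP, chromosome 2, 34771970 to 34777547), the HSP70 of the ER and the sensor partner of the UPR, lay at 40.2, 50.1 and 46.7 CPM in WT and at 39.0, 38.3 and 46.6 in dKO. Its groups overlapped through dKO replicate 3 and WT replicate 1, and the log2 fold change was -0.10 ± 0.10 (interval -0.31 to 0.11, adjusted p = 0.760). Hsp90b1 (GRP94, chromosome 10, 86690209 to 86705509), the HSP90 of the ER, lay at 40.4, 35.8 and 44.1 CPM in WT and at 33.8, 32.8 and 37.7 in dKO. Only dKO replicate 3 reached into the WT range, and the log2 fold change was -0.19 ± 0.11 (interval -0.40 to 0.02, adjusted p = 0.469). Dnajc3 (p58IPK), an ER co-chaperone that binds unfolded proteins, lay at 16.4, 15.5 and 12.2 CPM in WT and at 12.5, 14.8 and 12.5 in dKO. Its log2 fold change was -0.19 ± 0.15 (adjusted p = 0.673), and the groups overlapped. Dnajb11 (ERdj3), which hands clients to BiP, had -0.13 ± 0.19 (adjusted p = 0.847). Dnajb9 (ERdj4), a repressor of the UPR sensor Ire1, had -0.10 ± 0.29 (adjusted p = 0.932), although its mean CPM was 3.68 in WT and 3.89 in dKO. The other 8 tested ER members ran from -0.31 (Dnajb12, a membrane J protein) to 0.27 (Dnajc10, a disulfide reductase), and the median over all 13 was -0.13, with 10 below 0. It was -0.19 without WT replicate 1 and -0.04 without WT replicate 2.

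Mitochondrial members included the chaperonin pair and the HSP70 of import. Hspd1 (HSP60) and Hspe1 (HSP10), which form the folding cage of the matrix, lie head to head on chromosome 1 and share a promoter in which the heat shock element bound by HSF1 occurs. The element (GAA, any 2 bases, TTC, any 2 bases, GAA, or its complement, in which overlapping matches were counted once per window) was found in 198 of the 32851 windows (0.603%) and in 4 of the 58 members, Dnajb6, Hspd1, Hspe1 and Hsph1. Here too members were counted as genes, with 75 windows. The window of Hspe1, chr1:55087898-55088197 on the + strand, holds 2 overlapping matches at -89 to -77 and -84 to -72, in capitals.

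Hspe1: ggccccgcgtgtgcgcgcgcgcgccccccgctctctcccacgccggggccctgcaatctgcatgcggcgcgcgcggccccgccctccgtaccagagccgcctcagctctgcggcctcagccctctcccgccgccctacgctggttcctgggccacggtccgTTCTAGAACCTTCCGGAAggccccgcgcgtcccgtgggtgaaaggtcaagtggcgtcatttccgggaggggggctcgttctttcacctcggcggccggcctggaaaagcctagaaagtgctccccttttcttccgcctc

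The window of Hspd1 covers the same matches on the other strand. The 4 members with the element had log2 fold changes of -0.35 (Dnajb6), -0.16 (Hspd1), 0.01 (Hspe1) and -0.16 (Hsph1), and none was called. Hspd1 lay at 12.5, 14.9 and 11.7 CPM in WT and at 10.6, 12.9 and 11.4 in dKO, with overlap (-0.16 ± 0.16, adjusted p = 0.742). Hspe1 lay at 5.90, 5.07 and 3.06 CPM in WT and at 4.99, 4.61 and 4.70 in dKO, so the WT libraries spread more widely (0.01 ± 0.25, adjusted p = 0.992). Exons of the pair share 112 bases on opposite strands, and the sources used here do not give the strand setting of the counting. Hspa9 (mortalin), the HSP70 that pulls proteins into the matrix, lay at 19.7, 17.7 and 21.7 CPM in WT and at 19.0, 18.2 and 20.4 in dKO (-0.02 ± 0.13, adjusted p = 0.9750).

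The 4 tested mitochondrial DnaJ genes had estimates above 0, and every 95% interval included 0. Dnajc19, the J protein of the import motor, lay at 2.19, 1.27 and 2.04 CPM in WT and at 2.50, 2.91 and 2.42 in dKO. The groups did not overlap, yet the log2 fold change of 0.42 ± 0.38 had an interval of -0.34 to 1.18 (adjusted p = 0.732). Dnajc11, a J protein of the complex that shapes cristae, lay at 3.93, 3.802 and 3.83 CPM in WT and at 6.14, 3.88 and 5.68 in dKO. Replicate 2 of dKO sat among the WT libraries, and the log2 fold change was 0.49 ± 0.26 (interval -0.02 to 1.00, adjusted p = 0.416). Dnajc15, a relative of Dnajc19, had 0.40 ± 0.31 (adjusted p = 0.669), and Dnaja3, the matrix partner of Hspa9, had 0.07 ± 0.24 (adjusted p = 0.941). Over the 7 tested mitochondrial members the median was 0.07, with 2 below 0. Leaving out 1 library at a time, the median over these 7 ran from 0.02 without dKO replicate 2 to 0.31 without WT replicate 3. Without WT replicate 2 it was 0.05 over these 7 and -0.02 when another member that then passed the filter was included. It was 0.27 with dKO replicate 3 thinned to the depth of the other libraries.

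The smallest p of all members belonged to Dnajc5 (ENSMUSG00000000826, chromosome 2, 181520485 to 181555133), the cysteine string protein that guards SNARE folding on synaptic vesicles. It lay at 19.9, 18.1 and 21.7 CPM in WT and at 30.1, 20.9 and 26.7 in dKO. The high libraries were dKO replicates 1 and 3, while dKO replicate 2 lay within the WT range. The log2 fold change was 0.40 ± 0.13 (interval 0.14 to 0.65, edgeR adjusted p = 0.0886). Without dKO replicate 2 it was 0.49 with an adjusted p of 0.0263, so this call turned on 1 library. Other members grouped outside the 3 compartments lay nearer 0: Dnajc6 (auxilin, which with Hspa8 uncoats clathrin vesicles) had 0.04 ± 0.22, and Dnajc13, an endosomal J protein, had -0.08 ± 0.15. The median of the 7 was 0.04.

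**Figure D3:**
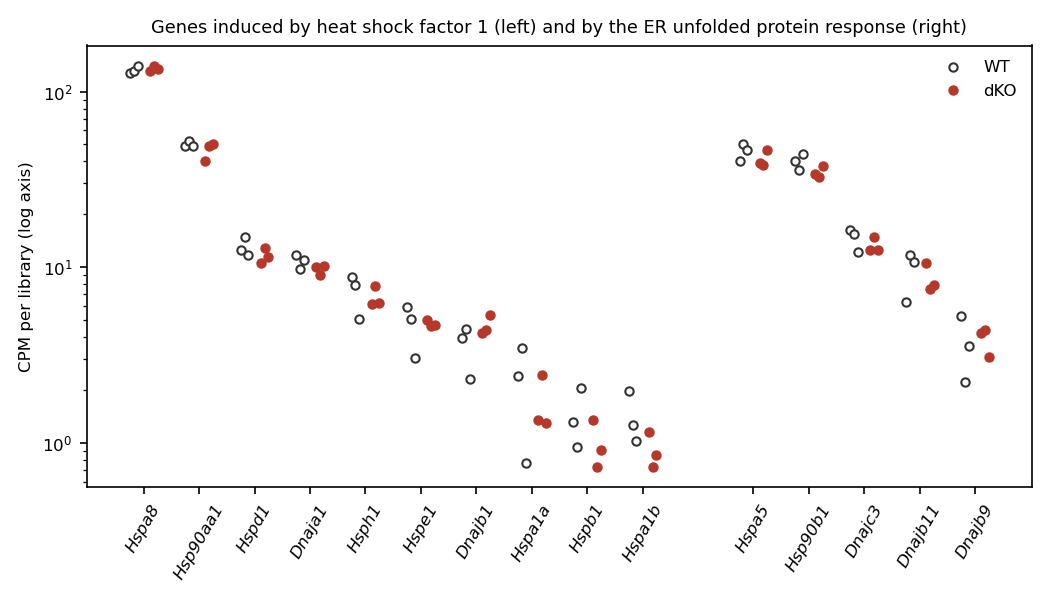
CPM in each library (1 point each, log axis) of the members that HSF1 (left) or the UPR (right) is known to induce, WT open and dKO filled. The points of both groups overlap for each of the 15 genes shown.

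Summed over all members, tested or not, the chaperones took 0.631 ± 0.00700% of the remaining counts in WT and 0.628 ± 0.0302% in dKO (mean ± SD, n = 3). Cytosolic members took 0.370%, 0.364% and 0.365% in WT and 0.338%, 0.377% and 0.380% in dKO, so dKO spanned both sides of the tight WT values. ER members took 0.160%, 0.160% and 0.158% in WT and 0.143%, 0.143% and 0.157% in dKO. The ER groups did not overlap, the ratio of means was 0.928, and dKO replicate 3 was the dKO library nearest to WT. Its 95% interval for counting error, 0.151% to 0.163%, held all 3 WT values. Those of dKO replicates 1 and 2, 0.1338% to 0.1535% and 0.1326% to 0.1548%, lay below all 3 WT values. The cause of the gap was not tested. Without dKO replicate 3 the ER ratio was 0.900. Mitochondrial members took 0.0501%, 0.0454% and 0.0490% in WT and 0.0479%, 0.0512% and 0.0529% in dKO, with overlap and a ratio of 1.05. Members elsewhere, Dnajc5 among them, took 0.0574 ± 0.00262% in WT and 0.0643 ± 0.00221% in dKO (ratio 1.12), without overlap. The 95% interval for counting error of dKO replicate 2, 0.0547% to 0.0694%, held all 3 WT values of this group. That of dKO replicate 1, 0.05917% to 0.07258%, held only the highest, 0.0603% in WT replicate 3. That of dKO replicate 3, 0.0617% to 0.06961%, lay above all 3. Exact Clopper-Pearson 95% intervals of single libraries, which cover counting error only, had half-widths of 0.00610 to 0.0135 percentage points for the ER share, beside group means of 0.159% and 0.148%. These shares are descriptions with no test.

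**Figure D4:**
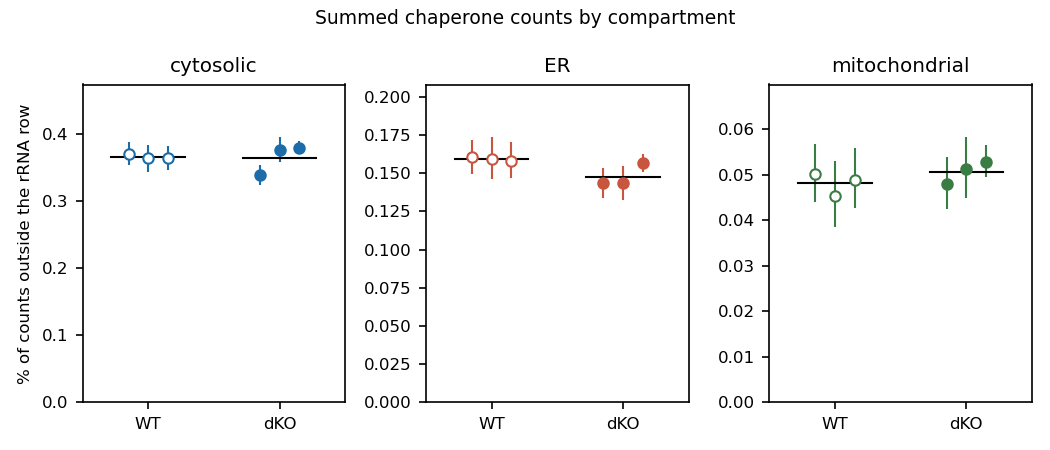
Share of the remaining counts taken by cytosolic, ER and mitochondrial members in each library, in percent, with exact 95% intervals for counting error and group means. The ER points of dKO lie below those of WT, and the other compartments shown overlap. For ER, the interval of dKO replicate 3 holds the WT points, and the intervals of dKO replicates 1 and 2 lie below them.

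Split by family, the estimates of the HSP genes lay below 0 in 12 of 15 tested members and those of the DnaJ genes in 15 of 30, against 50.2% of all genes, with medians of -0.09 and -0.01. The 8 tested HSF1-inducible members had a median of -0.12 (range -0.49 to 0.47), and the 5 UPR-inducible ones had -0.13 (range -0.19 to -0.10). The DnaJ genes gave 31.9 ± 0.725% of member counts in WT and 33.5 ± 1.10% in dKO.

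Genes that work with these chaperones gave no call by edgeR either, and nor did a list of immediate-early genes. Unadjusted edgeR p values lay under 0.05 for 2 of 20 cytosolic co-chaperones, 1 of 8 TRiC subunits and 2 of 21 ER genes. They did so for 1 of 12 mitochondrial genes and 4 of 11 immediate-early genes, against 12.5% of all genes tested. Of the cytosolic co-chaperones and heat shock factors 20 of 24 were tested and 0 were called, with a median of 0.06. Chordc1, an HSP90 co-chaperone, had -0.62 ± 0.22 (adjusted p = 0.158), and Bag1, an exchange factor of HSP70, had -0.40 ± 0.15 (adjusted p = 0.220). All 8 subunits of the chaperonin TRiC were tested and 0 were called, with a median of -0.02. Its subunits with the smallest p lay on either side of 0, Cct3 at 0.34 ± 0.14 (adjusted p = 0.262) and Cct8 at -0.25 ± 0.14 (adjusted p = 0.481). Of the ER folding and UPR genes 21 of 22 were tested and 0 were called, with a median of -0.04. Among them Hyou1, an HSP110 relative in the ER, had 12.1 ± 0.836 CPM in WT and 16.3 ± 0.254 in dKO (0.43 ± 0.15, adjusted p = 0.127), on the other side of 0 from Hspa5 and Hsp90b1. Sec63, a J protein of the ER import channel outside the symbol rule, had -0.36 ± 0.18 (adjusted p = 0.374). Of the mitochondrial folding and proteolysis genes 12 of 14 were tested and 0 were called, with 10 above 0 and a median of 0.19. Their summed share was 0.0632% to 0.0676% in WT and 0.0687% to 0.0741% in dKO, without overlap. Timm44, which anchors Hspa9 at the import channel, had -0.81 ± 0.33 (adjusted p = 0.251), and Trap1, the mitochondrial HSP90, had 0.37 ± 0.22 (adjusted p = 0.519). Of the immediate-early genes, which respond to cell handling and stress, 11 of 12 were tested and 0 were called, with 10 above 0, a median of 0.15 and shares of 0.0920% to 0.111% in WT and 0.114% to 0.121% in dKO. Dusp1, a MAP kinase phosphatase, had 0.63 ± 0.23 (adjusted p = 0.162), and Junb, an AP-1 subunit, had 0.30 ± 0.12 (adjusted p = 0.246). The part of the immediate-early genes in the chaperone values was not tested.

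The 28 members not tested held 615 counts, 2.45% of all member counts. Of these, Dnajb7, Dnajb8, Dnajc5b and Dnajc5g had 0 counts in all libraries, which allows up to 0.000183% (dKO replicate 3) to 0.000867% (WT replicate 2) of the remaining counts. The other 24 had 1 to 64 counts in all. Hspa2, an HSP70 best known from testis, had 6, 1 and 1 counts in WT and 11, 6 and 23 in dKO, without overlap in CPM. In a fit without the filter on low counts its log2 fold change was 1.27 ± 0.55 (edgeR adjusted p = 0.510). Hspb8, a partner of Bag3, had 1, 0 and 1 counts in WT and 2, 4 and 9 in dKO (adjusted p = 0.747).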

How the data were processed

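The values used are raw read counts per Ensembl gene in 6 RNA libraries (3 WT, 3 dKO), deposited by the authors as whole numbers with no normalization. Per the labels' protocols, RNA of sorted cells went through a stranded kit for total RNA. The authors used GRCm38, the aligner STAR (2.7.0d) and DESeq2 (1.22.2), per the submitters' processing notes. The sources used here do not give the counting program or its strand setting.

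With edgeR (4.0.16, under R 4.3.3), filterByExpr kept genes at a minimum count of 10 and total of 15, TMM gave the scaling, and a two-sided quasi-likelihood test compared the groups with no other term. Calls used a Benjamini-Hochberg adjusted p of 0.05 over all 8444 genes. Standard errors are the log2 fold change over the square root of F. CPM use the TMM-scaled library total, ribosomal RNA row included. Exon lengths and positions come from GENCODE M21, where all 73 members were found, and promoters from RefSeq. The script was tested on simulated data with 200 changed genes. It called 37.3% of those changed 1.5-fold, 77.6% at 2-fold and 92.4% at 4-fold. DESeq2 1.42.0 and limma 3.58.1 served as alternatives, beside other scalings and filters, a replicate block, each library left out, the ribosomal RNA row left out and dKO replicate 3 thinned.

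Named genes were the 5 tested members with the smallest p, the 4 largest changes in each direction, the 3 highest per length in each compartment, the HSF1- and UPR-inducible members and, from each pathway list, the 2 genes with the smallest p; Hspa14, Hspa2, Hspb8 and other members were named after their values were seen. The values of 1 member are not reported here; it stayed in every fit and count. Members and lists were chosen with earlier results of these data known. Replicate libraries differed beyond sampling noise (chi-square per degree of freedom 1.13 to 1.60). The labels do not say whether libraries of a group share mice, and p-values reflect only the variation among these libraries.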

Additional observations from a re-analysis of the deposited data

How the results depend on the processing

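No named member was called under any of the alternatives except Dnajc5, at an adjusted p of 0.0263 without dKO replicate 2 (log2 fold change 0.49). Of 367 values of the 23 named tested members under the alternatives, 1 was called and 34 changed sign, 15 of them under scaling by library total, where the ribosomal RNA row sets the scale. There the median of all genes moved to 1.21, those of the cytosolic, ER, mitochondrial and all members to 1.152, 1.07, 1.31 and 1.17, and 3 genes were called; relative to the median of all genes, the cytosolic and ER medians stayed below and the mitochondrial one above. With all counts as the denominator, the dKO over WT ratio of summed levels was 2.28 (cytosolic), 2.15 (ER), 2.41 (mitochondrial) and 2.28 (all members); with dKO replicate 3 excluded as well, an alternative chosen after seeing the data, these were 1.14, 1.05, 1.1996 and 1.14. DESeq2 called 52 genes (26 in each direction). At an adjusted p of 0.1, 257 genes and 1 member, Dnajc5, were called. With dKO replicate 3 thinned to 28.3% of its counts, the mitochondrial median was 0.27 and that of all members -0.027; without the low-count filter the latter was -0.038. Leaving out each library in turn gave 90 (without WT replicate 1) to 186 genes called, 0 to 1 members called, medians of -0.081 to -0.024 for all members, -0.12 to -0.05 for cytosolic, -0.19 to -0.04 for ER and -0.02 to 0.18 for mitochondrial members, which include members that newly passed or failed the filter (over the members of the reported medians -0.071 to -0.020, -0.0999 to -0.027, -0.19 to -0.04 and 0.02 to 0.31), and ratios of summed levels of 0.976 to 1.03, 0.900 to 0.941, 1.02 to 1.08 and, for all members, 0.973 to 1.02. The cause of these moves was not tested.

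Deviations of same-numbered libraries from their group means had correlations of 0.0262, 0.0129 and 0.0287. Counting noise at these depths lowers such correlations, so they cannot show whether the libraries were paired. With the replicate block, 158 genes (58 higher, 100 lower) and 0 members were called. There 2 of 45 members had an unadjusted edgeR p under 0.05, against 1024 of 8444 genes. Depth limits the 28 untested members, the small HSPs among them.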
